A study of Solanum lycopersicum with 32 samples.

Results

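The FT and TFL1 family of tomato, named after the Arabidopsis flowering genes FT and TERMINAL FLOWER 1, was followed through stem RNA-seq by 8 of its genes: SINGLE FLOWER TRUSS (SFT, Solyc03g063100), SELF PRUNING (SP, Solyc06g074350), SP5G (Solyc05g053850), SP6A (Solyc05g055660), SP2G (Solyc02g079290), SP9D (Solyc09g009560), SP5G2 (Solyc11g008640) and SP5G3 (Solyc11g008650). The genes were chosen by identifier from published knowledge of the family and not by a rule on their counts, though earlier results of these data were known. Each is 1 row of both count tables (8 of 34728 rows in one and 8 of 34825 rows in the heat-shock table). The reference table lists 0 of the identifiers used here. Of the 8 symbols 6 stand in it, and 6 of these 6 lie on the chromosome that the identifier names. SP5G2 and SP5G3 are not among them. They have neighbouring identifiers, and counting may have divided or discarded reads that such closely related neighbours share.

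Proteins of this family carry the decision between vegetative growth and flowering. Among the FT-like members, SFT is the tomato florigen, which moves from leaves through the phloem and promotes flowering. Not every FT-like member promotes flowering, and SP5G is known as a repressor. TFL1-like members, of which SP is the best known in tomato, act against florigen, and both kinds are known to bind the same 14-3-3 and bZIP partners. SP9D belongs to the TFL1 branch, SP5G, SP5G2, SP5G3 and SP6A to the FT branch, and SP2G to the MFT branch, named after MOTHER OF FT AND TFL1.

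The counts came from 32 libraries of tomato stem internodes, 2 for each of 16 groups in 5 experiments around florigen and the vascular stem. Each sample held 5 mid-internode segments taken 2 h after dawn. Whether both libraries of a group stem from separate plants is not stated, and the p-values below therefore reflect only how far these libraries spread, which may be technical. The overexpression experiment held wild type (WT), the sft mutant, which lacks working florigen from this gene, and libraries labelled pSFT-SFT, a promoter and transgene name that the labels do not explain further. The libraries taken as sft are titled so but carry the genotype label SFT. The graft experiment held the donor//recipient combinations WT//WT, sft//sft, 35S:SFT//sft, 35S:SFT//WT and 35S:SFT//sp. In these, 35S:SFT donors express SFT from the strong viral 35S promoter in most tissues, sp recipients lack working SP, and the labels do not say which stem was sampled. WT, 35S:SFT and 35S:TFUL2 made up the FUL experiment, the last with the MADS-box gene FUL2 under 35S. The Ginkgo experiment held only 35S:GinFT, an FT of Ginkgo under 35S, so that construct and experiment cannot be told apart there. In the heat-shock experiment all 4 groups carried the sft mutation, with or without pHS:FT, an Arabidopsis FT transgene under a heat-shock promoter, and with or without heat. How many transgenic lines stand behind each group is not given.

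Library totals ran from 16583755 to 45790153 reads. A count of 0 allows up to 3 reads, which comes to 0.0649 to 0.174 CPM depending on the library (CPM are counts scaled to a common library size after TMM normalization), and this limit covers counting error only. The 3 secondary-wall cellulose synthase genes used as stem markers had 10 reads or more in every library (summed level 1674 to 3398 CPM, and 1675 to 3245 CPM in the heat-shock table), as did the 2 KNOX genes. The 3 Rubisco small subunit genes summed to 3346 to 4014 CPM in the heat-shock table but to 424 to 5073 CPM in the other, with 424 to 1665 CPM in the FUL and Ginkgo libraries and 2543 CPM or more in the overexpression and graft libraries. Their part in differences that cross these experiments was not tested. Of 6 flower-organ markers only 1 had 10 reads or more in every library, and all 6 summed to 11.1 to 24.9 CPM, and to 10.6 to 15.3 CPM in the heat-shock table. Stems are bulk tissue, so fewer cells that express a gene and less RNA per cell cannot be told apart. Levels are given as mean CPM ± SD with n = 2 libraries, and the heat-shock table was normalized separately. Differences are log2 fold changes with standard errors (SE) that come from the quasi-likelihood test of edgeR, and a gene is called where its Benjamini-Hochberg adjusted p over all genes tested lies under 0.05.

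The family divided by how many reads its members gave. SP5G2, an FT-like gene, had 0 reads in all 32 libraries. SP5G, known as an FT-like repressor of flowering in tomato, had 7 reads in 5 of the 24 libraries outside the heat-shock experiment and 0 in the 8 heat-shock libraries. SP6A, whose potato counterpart is known as a signal for tuber formation, had 8 reads in 7 of the 24 libraries and likewise 0 in the heat-shock experiment. SP5G3 had 18 reads in 10 of 24 libraries and 7 reads in 4 of 8, with no library above 4. These 4 genes passed the filter on low counts in 0 of 23 comparisons, so differences between groups were not tested for them. For SP5G2 no reads were detected at this depth, and the other 3 were read in some libraries at a few reads each.

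Among the other 4 members, SFT was read in 21 of 24 and 8 of 8 libraries, SP2G in 24 of 24 and 8 of 8, SP9D in 20 of 24 and 8 of 8, and SP in 14 of 24 and 0 of 8. In the heat-shock stems every library had SFT reads and none had SP reads. SFT passed the filter in all 23 comparisons, SP9D in 20, SP2G in 17 and SP in 8.

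**Figure D1:**
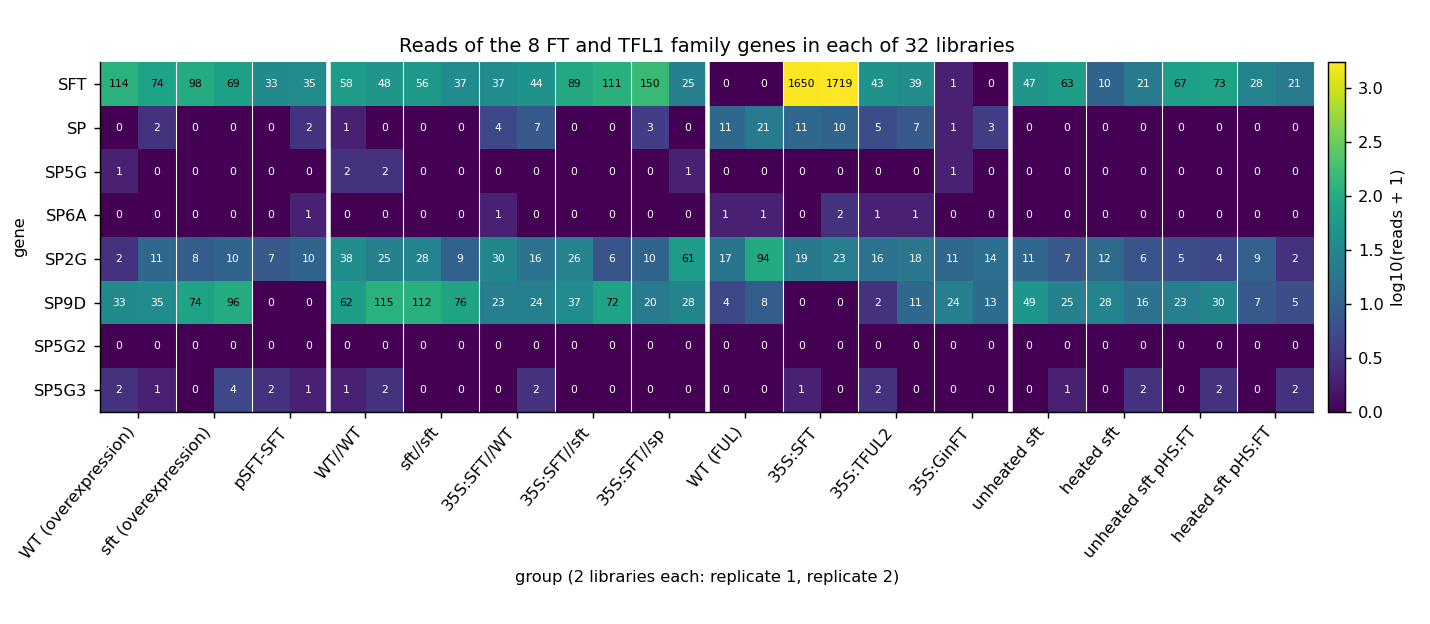
Reads of the 8 FT and TFL1 family genes (rows) in each of 32 libraries (columns, replicates 1 and 2 of each of 16 groups), printed in the cells and coloured by log10(reads + 1), with white lines between experiments. SFT reaches 1650 and 1719 reads in 35S:SFT and 0 in both WT libraries of the FUL experiment, SP9D stands at 0 in both pSFT-SFT and both 35S:SFT libraries, and SP5G2 is at 0 throughout.

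Calls among the members were counted in each comparison. In the overexpression experiment 3 of the 8 members passed the filter, and 2 of them (SFT and SP9D) were called in the libraries labelled pSFT-SFT, both against WT (17.8% of all genes tested were called there) and against sft (19.4%). Between sft and WT edgeR called 0 of 3 (0.0568% of all genes), with 1 member at an unadjusted p under 0.05 and 0 called by DESeq2. The share of all genes called is high in the first pair of comparisons and near nothing in the last.

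In the graft experiment 3 members were tested and edgeR called 0 of them in each comparison. This held for 35S:SFT against sft donors on sft (0% of all genes called), 35S:SFT against WT donors on WT (0.0139%), sft//sft against WT//WT (0.00927%), sp against WT recipients of 35S:SFT (0.00464%) and the difference of the donor response between recipients (0%). At an unadjusted p under 0.05 there was 1 member, SP9D on WT, and 0 in the other graft comparisons, and DESeq2 called 0 in each. Averaged over both recipients, a comparison added after the data were seen, edgeR again called 0 members (0.0278% of all genes), with 1 at an unadjusted p under 0.05 and 1 called by DESeq2.

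In the FUL experiment SFT was the 1 member called of 3 tested in 35S:SFT against WT (1.74% of all genes), in 35S:TFUL2 against WT (12.7%) and in 35S:SFT against 35S:TFUL2 (8.53%). In 35S:SFT the reads of this gene may be those of the transgene. With 35S:GinFT, set against groups of another experiment, 4 members were tested, and 1 was called against WT (6.24%) and 3 against 35S:SFT (32%). SP9D, 1 of these 3, did not pass the filter with the FUL groups alone and entered through its 35S:GinFT reads. SP, called in both comparisons, passed the filter only through its FUL WT reads. In the heat-shock experiment 2 members were tested. There edgeR called 0 in heat against no heat in sft (0.0973% of all genes), in sft pHS:FT (5.99%), between the heated genotypes (2.39%), between the unheated genotypes (0%) and for the difference of the heat responses (0.0146%). DESeq2 called 0 in each of these, and at an unadjusted p under 0.05 the numbers were 1, 2, 1, 0 and 0. Averaged over both genotypes, a comparison also added after the data were seen, 1 of 2 members was called (5.9%). Between the WT groups of different experiments, 4 of 4 members were called in the FUL against the overexpression experiment (44.2%), 1 in WT//WT against overexpression WT (22.1%) and 3 in WT//WT against FUL WT (45.4%). In that fit of the whole table SP passed the filter only through its FUL WT and 35S:SFT reads, the groups where it is highest.

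SFT, the florigen gene, was first read group by group, because it is the gene that most labels concern. In the overexpression experiment SFT had 114 and 74 reads in WT (2.61 ± 0.442 CPM), 98 and 69 in sft (2.52 ± 0.261 CPM) and 33 and 35 in the libraries labelled pSFT-SFT (1.19 ± 0.146 CPM). The WT and sft libraries overlapped, and both libraries labelled pSFT-SFT lay below all 4 others. The transcript therefore does not check the sft label, since a mutant can keep its transcript. Nor was the transcript higher in the libraries labelled pSFT-SFT, and whether that label means more SFT in stems is not stated. SFT was lower in the libraries labelled pSFT-SFT than in WT (log2 -1.14, SE 0.238, edgeR adjusted p = 0.0231) and than in sft (log2 -1.09, SE 0.239, edgeR adjusted p = 0.0249). Neither call was kept when any 1 of the libraries compared was left out (adjusted p 0.0541 to 0.107 and 0.0655 to 0.119), nor when all groups of the table were fitted together (0.234 and 0.257).

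In the grafts SFT had 58 and 48 reads in WT//WT (1.5 ± 0.168 CPM) and 56 and 37 in sft//sft (1.45 ± 0.160 CPM). With a 35S:SFT donor it had 37 and 44 reads on WT (1.38 ± 0.318 CPM), 89 and 111 on sft (3.03 ± 0.286 CPM) and 150 and 25 on sp (2.56 ± 2.86 CPM). The sft recipients of a 35S:SFT donor lay above both sft//sft libraries, while on WT the groups overlapped and on sp the 2 libraries stood on either side of all other graft libraries. The difference on sft was not called (log2 1.05, SE 0.76, edgeR adjusted p = 0.957). On sp against WT recipients the log2 difference of 0.87 (SE 0.768, edgeR adjusted p = 1) became -1.34 without sp replicate 1.

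None of these graft levels came near those of 35S:SFT stems, in which SFT had 1650 and 1719 reads (59.5 ± 3.05 CPM), although the experiments differ. In the same FUL experiment SFT had 0 reads in both WT libraries and 43 and 39 reads in 35S:TFUL2 (1.49 ± 0.209 CPM), and in 35S:GinFT of the Ginkgo experiment it had 1 and 0 reads. Against WT, SFT rose at least 527-fold in 35S:SFT (edgeR adjusted p = 0.000753) and at least 13.2-fold in 35S:TFUL2 (0.00332), and it was 39.9-fold higher in 35S:SFT than in 35S:TFUL2 (log2 5.29, SE 0.147, edgeR adjusted p = 0.00065). All 3 calls were kept in each of 10 alternative settings. The 35S:SFT plants carry SFT as a transgene, whose reads may count to this gene. Transgene and the plant's own copy cannot be told apart here, so the calls with 35S:SFT check the construct only. Against 35S:SFT, 35S:GinFT had 2935-fold less by the ratio of reads (1 against 3369, 95% exact counting interval 526 to 115950, edgeR adjusted p = 0.000121).

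WT itself was thus not one level of SFT. The overexpression WT libraries had 114 and 74 reads, WT//WT had 58 and 48, and the FUL WT libraries had 0 and 0, with no overlap between the experiments. SFT was at least 23.2-fold lower in the FUL WT than in the overexpression WT (edgeR adjusted p = 0.000349) and at least 13.3-fold higher in WT//WT than in the FUL WT (edgeR adjusted p = 0.0011), while WT//WT against the overexpression WT was not called (log2 -0.81, SE 0.577, edgeR adjusted p = 0.337). Of 14 photoperiod genes followed, 4 were higher and 3 lower in the FUL than in the overexpression WT, where 44.2% of all genes tested were called, so the list's share is near that of all genes. Among the 4 higher genes were FKF1 (log2 4.38, SE 0.297, edgeR adjusted p = 1.20e-07) and GI1 (log2 1.89, SE 0.293, edgeR adjusted p = 0.000161), both known for daily rhythms of expression. The 3 lower ones are not named here. The Rubisco small subunit genes, markers of green tissue, summed to 881 and 1335 CPM in the FUL WT, 3042 and 3160 CPM in the overexpression WT and 3664 and 4145 CPM in WT//WT, lower in the FUL WT as SFT was. They summed to 424 and 531 CPM in 35S:GinFT, where SFT stood at 0.0201 CPM. In 35S:TFUL2 they summed to 1552 and 1665 CPM, yet SFT stood at 1.49 CPM, near its 1.5 CPM in WT//WT. The part of either list in the SFT difference was not tested, and experiment, plant material and harvest cannot be told apart here.

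Heat went with less SFT in both genotypes. Without the transgene, SFT had 47 and 63 reads in unheated sft (2.18 ± 0.803 CPM) and 10 and 21 in heated sft (0.682 ± 0.312 CPM). With pHS:FT it had 67 and 73 reads without heat (3.03 ± 0.0955 CPM) and 28 and 21 with heat (1.26 ± 0.0599 CPM). Every heated library lay below every unheated library of either genotype. Taken one by one neither difference was called (in sft 3.2-fold, log2 -1.65, SE 0.393, edgeR adjusted p = 0.248; in sft pHS:FT 2.41-fold, log2 -1.26, SE 0.369, edgeR adjusted p = 0.0873), and the responses did not differ beyond the replicate spread (log2 0.39, SE 0.538, edgeR adjusted p = 0.847). Averaged over both genotypes SFT fell with heat, in 4 of 4 libraries (log2 -1.45, SE 0.27, edgeR adjusted p = 0.0269). That call was lost without heated sft replicate 1 or 2, heated sft pHS:FT replicate 2, or unheated sft pHS:FT replicate 1 or 2 (adjusted p over the libraries left out 0.0242 to 0.119). The Arabidopsis FT row, which holds the transgene, had 57 and 70 reads in heated sft pHS:FT, 1 and 1 without heat, 0 and 0 in heated sft, and 12 and 0 in unheated sft, which should lack it.

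In order of mean level outside the heat-shock table, SFT ran from 35S:SFT (59.5 CPM) through 35S:SFT//sft, overexpression WT, 35S:SFT//sp, sft, WT//WT, 35S:TFUL2, sft//sft, 35S:SFT//WT and the libraries labelled pSFT-SFT (1.19 CPM) to 35S:GinFT (0.0201 CPM) and FUL WT (0). The libraries of 8 of the 11 neighbouring pairs overlapped. The pairs that did not were 35S:SFT with 35S:SFT//sft, sft with WT//WT, and the libraries labelled pSFT-SFT with 35S:GinFT.

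**Figure D2:**
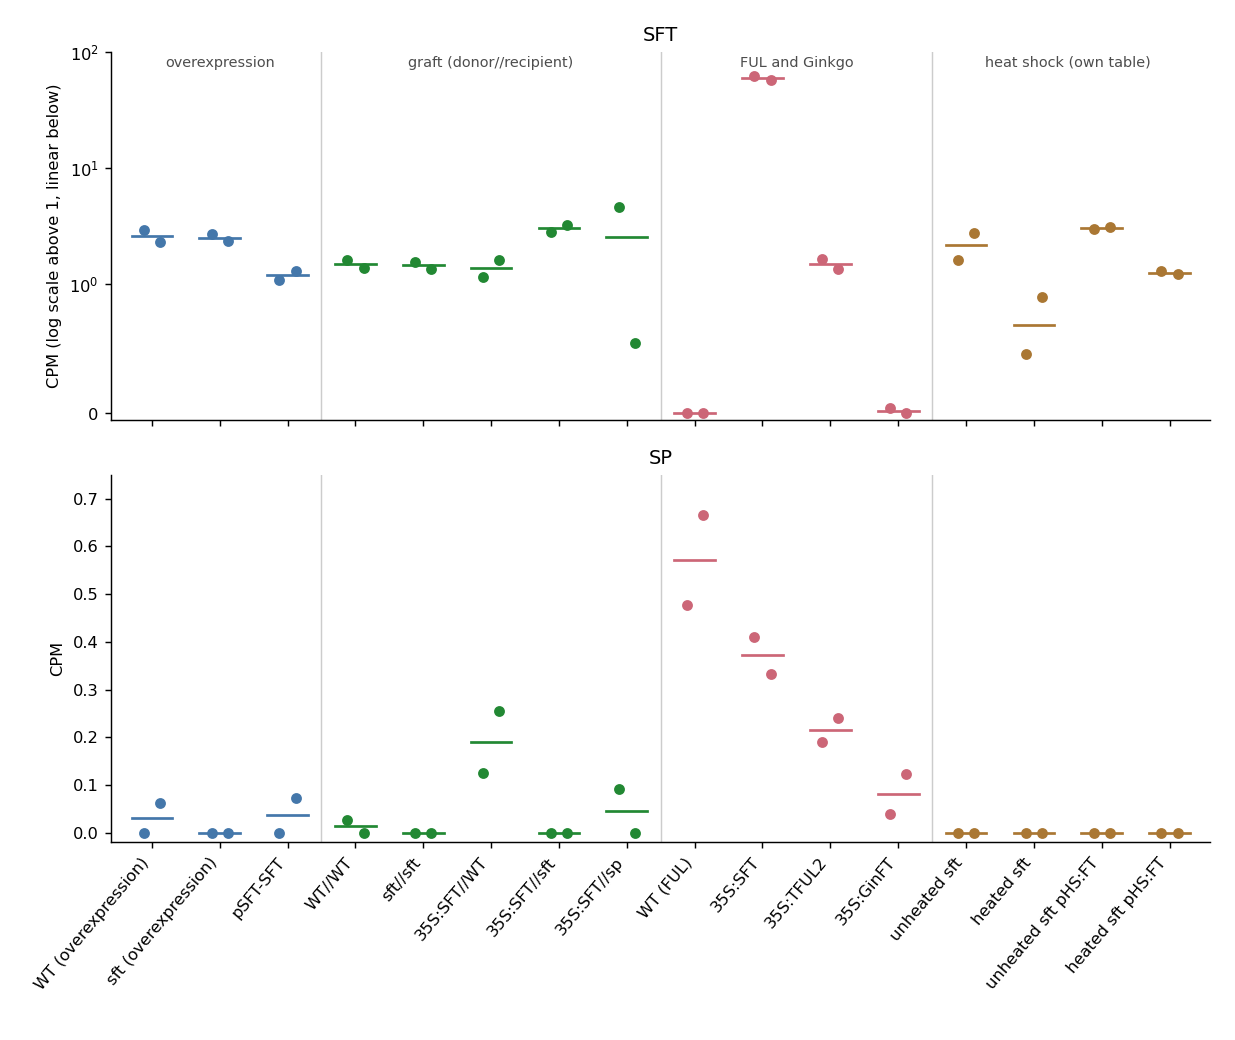
Level of SFT (upper panel, log axis above its linear part) and SP (lower panel) in CPM by group, with 1 point per library and a line at the group mean, coloured by experiment. SFT is at 59.5 CPM in 35S:SFT and at 0 in the FUL WT, while SP is highest in the FUL WT at 0.572 CPM and at 0 in every heat-shock library.

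SP, the TFL1-like gene that keeps tomato shoots indeterminate, was close to the limit of detection in most stems and best read in the FUL WT. It had 11 and 21 reads in the FUL WT (0.572 ± 0.132 CPM), 11 and 10 in 35S:SFT (0.372 ± 0.0548 CPM), and 5 and 7 in 35S:TFUL2 (0.216 ± 0.0356 CPM), all of the FUL experiment, while 35S:GinFT of the Ginkgo experiment had 1 and 3 (0.0813 ± 0.0582 CPM). In these groups the WT libraries lay above all others and the 35S:GinFT libraries below all others. Across the experiments, SP was lower in 35S:GinFT than in WT (7.25-fold by the ratio of 4 to 32 reads, 95% exact counting interval 2.57 to 28.2, log2 -2.73, SE 0.562, edgeR adjusted p = 0.0382) and than in 35S:SFT (4.57-fold, interval 1.54 to 18.3, log2 -2.08, SE 0.589, edgeR adjusted p = 0.0353). The first call was lost in 8 of 10 and the second in 8 of 9 alternative settings, with adjusted p up to 0.198 and 0.176, each loss including every setting that left out a 35S:GinFT library. SP in 35S:TFUL2 against WT was not called (log2 -1.38, SE 0.42, edgeR adjusted p = 0.0866), nor in 35S:SFT against WT (log2 -0.65, SE 0.389, edgeR adjusted p = 0.391). In the fit with 35S:GinFT, SP passed the filter only through its FUL WT reads, the group where it is highest. Without the filter the edgeR adjusted p of 35S:GinFT was 0.0496 against WT and 0.0516 against 35S:SFT.

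Outside the FUL and Ginkgo experiments SP had 0 and 2 reads in the overexpression WT, 0 and 2 in the libraries labelled pSFT-SFT, 1 and 0 in WT//WT, and 0 in each library of sft, sft//sft and 35S:SFT//sft. Only 35S:SFT//WT, with 4 and 7 reads, and 35S:SFT//sp, with 3 and 0, held more among the grafts. The ratio of reads in 35S:SFT//WT to WT//WT was 13.1 (11 against 1 read, 95% exact counting interval 1.9 to 564). SP did not pass the filter there, and the difference was called neither without the filter (log2 3.42, SE 1.54, edgeR adjusted p = 0.87) nor with all groups of the table in the fit (log2 3.40, SE 1.33, edgeR adjusted p = 0.456). Those sp recipients carry the sp mutation, so 3 reads in 1 of their libraries do not check the label either way. Between WT groups, SP was higher in the FUL than in the overexpression experiment (ratio 20.9 with a 95% exact counting interval of 5.32 to 180, log2 4.16, SE 1.03, edgeR adjusted p = 0.00653), though not without overexpression WT replicate 1 (0.0634). It was lower in WT//WT than in the FUL WT (ratio 41.5, interval 6.93 to 1690, log2 -5.01, SE 1.15, edgeR adjusted p = 0.00366). In the fit of the whole table SP passed the filter only through its FUL WT and 35S:SFT reads, the groups where it is highest. Without the filter the edgeR adjusted p of the FUL WT was 0.00887 against the overexpression WT and 0.00478 against WT//WT.

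SP9D, a TFL1-like gene, fell to no reads at all in the libraries labelled pSFT-SFT. It had 33 and 35 reads in WT (0.968 ± 0.171 CPM), 74 and 96 in sft (2.64 ± 0.853 CPM) and 0 and 0 in the libraries labelled pSFT-SFT. The 3 groups did not overlap. Against WT the fall was at least 9.23-fold (edgeR adjusted p = 0.00735) and against sft at least 25.2-fold (edgeR adjusted p = 0.00275), with 3 reads in each library taken as the floor of the group at 0. Both calls were kept in each of 10 alternative settings, in which the adjusted p reached at most 0.0352 and 0.0142. Between sft and WT, SP9D was 2.73-fold higher in sft without being called (log2 1.45, SE 0.343, edgeR adjusted p = 0.705).

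SP9D also had 0 reads in 35S:SFT stems. It had 4 and 8 reads in the FUL WT (0.214 ± 0.0564 CPM), 0 and 0 in 35S:SFT, and 2 and 11 in 35S:TFUL2 (0.227 ± 0.214 CPM), and in the Ginkgo experiment 35S:GinFT had 24 and 13 (0.746 ± 0.306 CPM). All 35S:SFT libraries lay below the others and all 35S:GinFT libraries above them. SP9D did not pass the filter in the fit of the FUL groups alone. Without the filter the fall in 35S:SFT was called neither against WT (edgeR adjusted p = 0.174) nor against 35S:TFUL2 (0.102). With all groups of the table in the fit edgeR gave 0.0403 and 0.0186. There the filter lets the gene through only because other groups hold more reads, so a fall is not drawn from these values. The levels allow a fall of at least 2.02-fold against WT and 2.14-fold against 35S:TFUL2. In 35S:GinFT the gene was at least 7.04-fold higher than in 35S:SFT (edgeR adjusted p = 0.0122, lost without 35S:GinFT replicate 1 or either 35S:SFT library). Against WT it was not called (log2 1.80, SE 0.717, edgeR adjusted p = 0.186). In that fit SP9D passed the filter only through its 35S:GinFT reads, the group where it is highest. Without the filter the edgeR adjusted p was 0.0101 against 35S:SFT and 0.226 against WT.

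In the grafts SP9D kept its reads. It had 62 and 115 reads in WT//WT (2.51 ± 1.11 CPM) and 112 and 76 in sft//sft (2.94 ± 0.269 CPM). With a 35S:SFT donor it had 23 and 24 on WT (0.797 ± 0.111 CPM), 37 and 72 on sft (1.64 ± 0.651 CPM) and 20 and 28 on sp (0.609 ± 0.00382 CPM). On WT and on sft the libraries with a 35S:SFT donor lay below those of the matching control graft. The differences were 3.15-fold on WT (log2 -1.66, SE 0.398, edgeR adjusted p = 0.536) and 1.8-fold on sft (log2 -0.85, SE 0.373, edgeR adjusted p = 0.951), neither of them called, and the donor response did not differ between recipients beyond the replicate spread (log2 0.81, SE 0.542, edgeR adjusted p = 1). Averaged over both recipients the log2 difference was -1.25 (SE 0.273, edgeR adjusted p = 0.324, and 0.03 by DESeq2), lower in 4 of 4 libraries. With earlier against later label numbers of the graft libraries as a block, edgeR gave SP9D log2 values of -1.62, -0.91 and -1.26, and the adjusted p of SP9D was 0.208 on WT, 0.531 on sft and 0.138 over both. The sp against WT recipients of that donor gave -0.39 (SE 0.424, edgeR adjusted p = 1).

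In the heat-shock stems SP9D was lowest in the heated sft pHS:FT libraries, which also held the most reads of the Arabidopsis FT row. It had 49 and 25 reads in unheated sft (1.39 ± 0.419 CPM), 28 and 16 in heated sft (0.990 ± 0.427 CPM), 23 and 30 in unheated sft pHS:FT (1.15 ± 0.181 CPM) and 7 and 5 in heated sft pHS:FT (0.307 ± 0.0252 CPM). Both heated sft pHS:FT libraries lay below the other 6, which overlapped among themselves. The unheated sft library with 12 reads of the Arabidopsis FT row was the one with 49 reads of SP9D, the highest level of the 8. None of the differences was called: heat in sft pHS:FT gave log2 -1.87 (SE 0.48, edgeR adjusted p = 0.0632), heated sft pHS:FT against heated sft -1.65 (SE 0.488, edgeR adjusted p = 0.141), and heat in sft -0.50 (SE 0.392, edgeR adjusted p = 0.775). The difference of the heat responses was -1.37 (SE 0.625, edgeR adjusted p = 0.548).

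SP9D also differed between the WT groups, in another order than SFT. The FUL WT was lower than the overexpression WT (log2 -2.12, SE 0.581, edgeR adjusted p = 0.01, lost at 0.0629 without FUL WT replicate 1), and WT//WT was higher than the FUL WT (log2 3.50, SE 0.56, edgeR adjusted p = 0.000248). WT//WT was also higher than the overexpression WT (log2 1.37, SE 0.457, edgeR adjusted p = 0.0464), a call lost in 5 of 9 alternative settings, among them without WT//WT replicate 2 or either overexpression WT library (up to 0.299). In order of mean level SP9D ran from sft//sft, sft and WT//WT, through 35S:SFT//sft, overexpression WT, 35S:SFT//WT, 35S:GinFT, 35S:SFT//sp and 35S:TFUL2, to the FUL WT and the groups at 0, and the libraries of 8 of the 11 neighbouring pairs overlapped. The highest mean was 2.94 CPM.

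**Figure D3:**
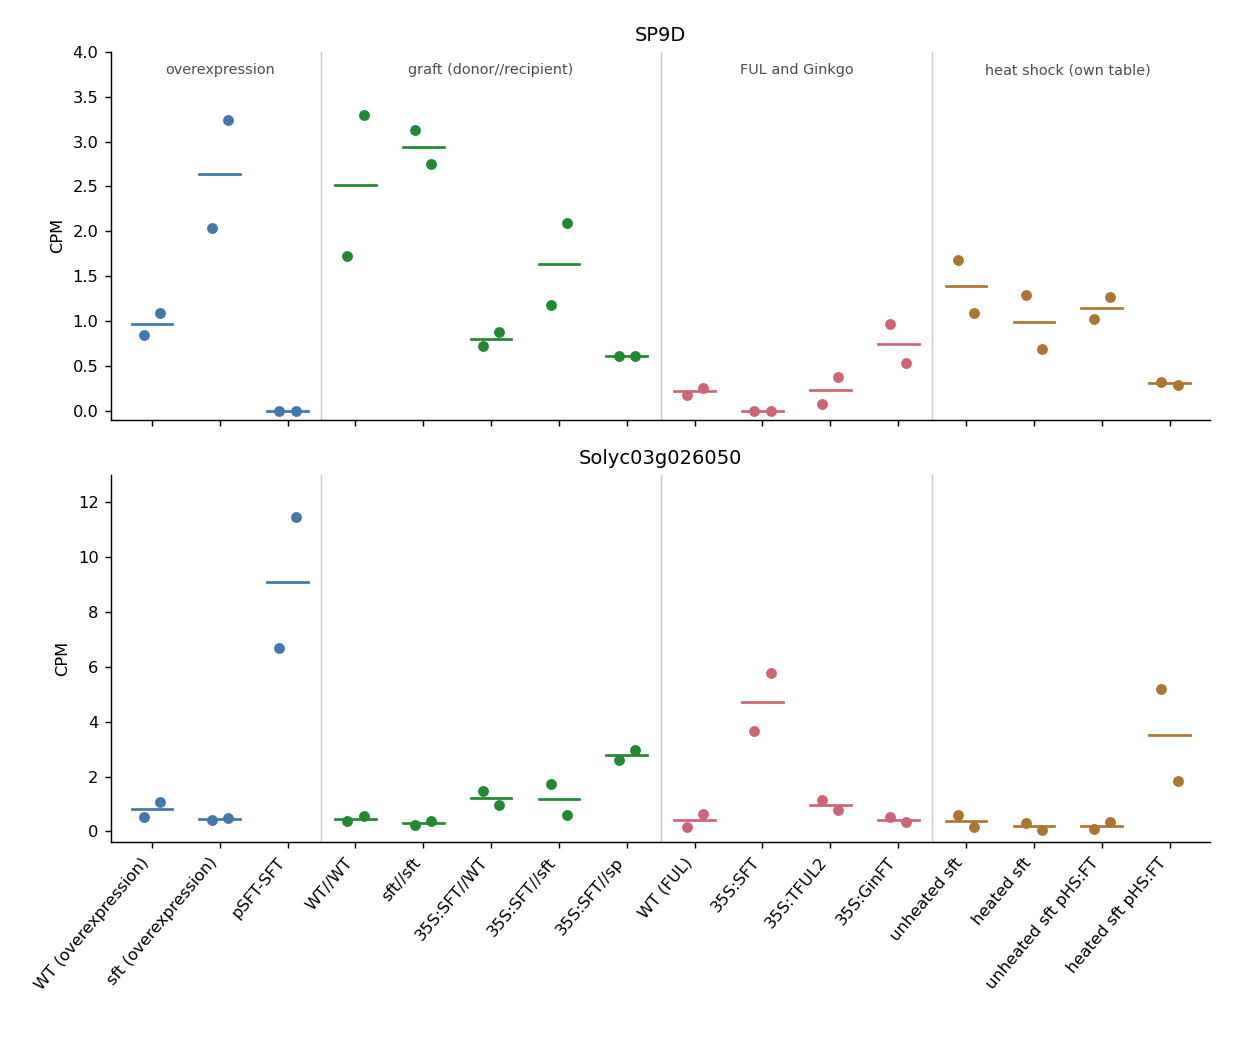
Level of SP9D (upper panel) and of Solyc03g026050 (lower panel) in CPM by group, with 1 point per library and a line at the group mean, coloured by experiment. SP9D is at 0 in both libraries labelled pSFT-SFT and both 35S:SFT libraries, where Solyc03g026050 stands at 9.08 and 4.71 CPM on average.

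A further identifier of the family showed a different pattern. Besides the 8 members, 4 other identifiers were listed as family genes. Solyc03g119100 had 0 reads in all libraries, Solyc01g009560 had 4 reads in 1 library and Solyc01g009580 had 6 reads in 2. Solyc03g026050, which published knowledge places in the TFL1 branch but which neither the tables nor the reference annotates, was read in 24 of 24 and 8 of 8 libraries, and it was taken up in detail only after its values were seen.

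In the overexpression experiment Solyc03g026050 had 21 and 35 reads in WT (0.814 ± 0.389 CPM), 15 and 14 in sft (0.444 ± 0.0424 CPM) and 203 and 310 in the libraries labelled pSFT-SFT (9.08 ± 3.37 CPM). Both libraries of the last group lay above all 4 others. It rose 11.2-fold against WT (log2 3.49, SE 0.402, edgeR adjusted p = 0.00405) and 20.5-fold against sft (log2 4.34, SE 0.438, edgeR adjusted p = 0.00231), with both calls kept in each of 10 alternative settings.

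In the FUL experiment the gene had 4 and 20 reads in WT (0.404 ± 0.325 CPM), 98 and 173 in 35S:SFT (4.71 ± 1.49 CPM), 30 and 23 in 35S:TFUL2 (0.967 ± 0.248 CPM) and, in the Ginkgo experiment, 13 and 8 in 35S:GinFT (0.424 ± 0.138 CPM). The 35S:SFT libraries stood above all others. Against WT it was 11.7-fold higher in 35S:SFT (log2 3.45, SE 0.55, edgeR adjusted p = 0.0476), a call lost in 4 of 10 alternative settings, among them without either 35S:SFT library (up to 0.243). Against 35S:TFUL2 the log2 difference was 2.26 (SE 0.5, edgeR adjusted p = 0.0493), lost in 5 of 10, among them without any 1 of the libraries compared (up to 0.267). From 35S:SFT to 35S:GinFT it was 11.1-fold lower (log2 -3.40, SE 0.547, edgeR adjusted p = 0.00567), kept in each of 10. Neither 35S:TFUL2 (log2 1.19, SE 0.584, edgeR adjusted p = 0.229) nor 35S:GinFT (log2 0.04, SE 0.635, edgeR adjusted p = 0.976) was called against WT.

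Under heat, Solyc03g026050 had 17 and 4 reads in unheated sft (0.379 ± 0.29 CPM), 7 and 1 in heated sft (0.183 ± 0.198 CPM), 2 and 8 in unheated sft pHS:FT (0.214 ± 0.177 CPM) and 112 and 32 in heated sft pHS:FT (3.53 ± 2.37 CPM). Both libraries of the last group lay above the other 6. Among those 6 the unheated sft library with 12 reads of the Arabidopsis FT row had the highest level, with 17 reads. With the transgene it was 16.5-fold higher with heat (log2 4.01, SE 0.871, edgeR adjusted p = 0.0408), lost in 6 of 9 alternative settings, among them without any 1 of the libraries compared (up to 0.194). Heated sft pHS:FT against heated sft was not called (log2 4.27, SE 0.902, edgeR adjusted p = 0.0585), although DESeq2 gave 0.000546, and the difference of the heat responses was not called either (log2 5.12, SE 1.38, edgeR adjusted p = 0.332). Heat without the transgene gave -1.11 (SE 1.07, edgeR adjusted p = 0.826). Solyc03g026050 passed the filter of this fit only through its heated sft pHS:FT reads, the group where it is highest. Without the filter the edgeR adjusted p was 0.0249 for heat with the transgene and 0.0324 between the heated genotypes.

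The grafts lay between these extremes for Solyc03g026050, which had 13 and 20 reads in WT//WT (0.468 ± 0.150 CPM), 9 and 10 in sft//sft (0.307 ± 0.0781 CPM), 47 and 26 in 35S:SFT//WT (1.21 ± 0.367 CPM), 54 and 21 in 35S:SFT//sft (1.16 ± 0.781 CPM) and 85 and 137 in 35S:SFT//sp (2.78 ± 0.259 CPM). Every library with a 35S:SFT donor lay above every control graft library, and both sp recipients lay above the WT and sft recipients of that donor. None of these differences was called by edgeR: the donor gave log2 1.92 on sft (SE 0.556, adjusted p = 0.951) and 1.37 on WT (SE 0.521, adjusted p = 0.665), and sp against WT recipients gave 1.19 (SE 0.47, adjusted p = 1). Averaged over both recipients it was 1.64 (SE 0.381, edgeR adjusted p = 0.381, and 0.0328 by DESeq2).

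**Figure D4:**
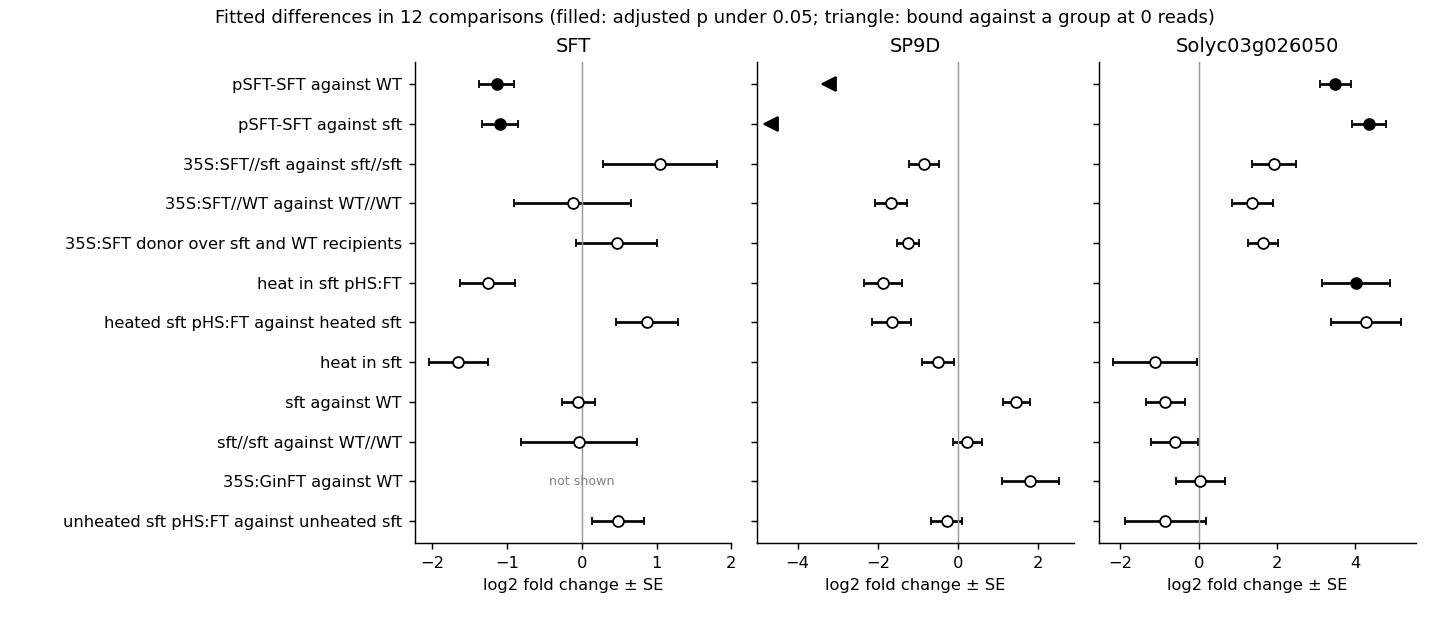
Fitted log2 fold changes (points, with bars of 1 SE) of SFT, SP9D and Solyc03g026050 in 12 comparisons, filled where the edgeR adjusted p lies under 0.05. Triangles mark the bound against a group at 0 reads, and SFT in 35S:GinFT against WT is left out because both groups are at or near 0 reads. Against WT, the libraries labelled pSFT-SFT have at least 9.23-fold less SP9D and 11.2-fold more Solyc03g026050. SFT is below 0 in both heat comparisons.

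SP2G, the MFT-like member, was read in every library but separated few groups. It had 2 and 11 reads in the overexpression WT (0.197 ± 0.206 CPM), 8 and 10 in sft and 7 and 10 in the libraries labelled pSFT-SFT, which overlapped. In the FUL experiment it had 17 and 94 reads in WT (1.86 ± 1.58 CPM), 19 and 23 in 35S:SFT (0.738 ± 0.0404 CPM), and 16 and 18 in 35S:TFUL2 (0.614 ± 0.00705 CPM), and 35S:GinFT of the Ginkgo experiment had 11 and 14 (0.506 ± 0.0920 CPM), so 1 WT library stood apart from the other 7. SP2G was called only between the FUL and the overexpression WT (log2 3.30, SE 0.877, edgeR adjusted p = 0.00716), and that call was lost without the FUL WT replicate 2, without overexpression WT replicate 1 and in a fit of those WT groups alone (up to 0.15). Against the FUL WT, SP2G was not called in 35S:SFT (log2 -1.37, SE 0.634, edgeR adjusted p = 0.285), 35S:TFUL2 (log2 -1.61, SE 0.648, edgeR adjusted p = 0.16) or 35S:GinFT (log2 -1.86, SE 0.627, edgeR adjusted p = 0.128), and each value rested on that 1 WT library. Without FUL WT replicate 2, the higher one, the log2 differences were -0.00279, -0.25 and -0.491 (edgeR adjusted p = 1, 0.738 and 0.499), and without replicate 1 they were -2.03, -2.27 and -2.53, each called (edgeR adjusted p = 0.026, 0.0116 and 0.0168).

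In the grafts SP2G separated the libraries by their label numbers. The labels give 1 library of each graft group a number from an earlier run of numbers and the other a number from a later run, and what the numbers stand for is not given. In the later-numbered libraries SP2G had 26 to 61 reads (0.784 to 1.32 CPM) and in the earlier ones 6 to 25 reads (0.175 to 0.717 CPM), with no overlap, and it was higher in the later library in 5 of 5 groups. SFT was higher there in 2 of 5 groups and SP9D in 1 of 5. Over all genes, with libraries matched by these runs, the deviations from the group means of 9 of 10 pairs of graft groups correlated above 0 and 8 above 0.1 (-0.039 to 0.51). With the run as a block edgeR again called 0 members in each graft comparison. In the heat-shock experiment SP2G had 2 to 12 reads per library and did not pass the filter.

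Other genes of the florigen pathway were followed by lists. All 4 FRUITFULL-clade MADS-box genes, known as targets of florigen signalling at the meristem, rose in the libraries labelled pSFT-SFT against WT, with a median log2 change of 3.59 beside -0.00236 over all genes tested, of which 17.8% were called. MBP20 gave the highest value (log2 4.75, SE 0.474, edgeR adjusted p = 0.00258). In 35S:SFT against WT (1.74% of all genes called) 2 of 3 tested rose, FUL1 (log2 1.93, SE 0.123, edgeR adjusted p = 0.00801) and FUL2 (log2 3.25, SE 0.293, edgeR adjusted p = 0.0137), and in heated against unheated sft pHS:FT (5.99% called) 1 of 2 did, FUL2 (log2 3.78, SE 0.633, edgeR adjusted p = 0.0209). With a 35S:SFT donor edgeR called 0 of 4 on sft and 0 of 4 on WT recipients (0% and 0.0139% of all genes). The adjusted p on sft and on WT was 0.181 and 0.145 for FUL1 and 0.0668 and 0.145 for FUL2. Averaged over both graft recipients, a comparison added after the data were seen (0.0278% called), 2 of 4 were higher with that donor. These were FUL1 (log2 2.76, SE 0.242, edgeR adjusted p = 0.0227) and FUL2 (log2 2.83, SE 0.207, edgeR adjusted p = 0.0104). In 35S:GinFT, of another experiment, 2 of 3 were lower than in 35S:SFT, beside 32% of all genes called in either direction. Against WT 0 of 3 were called (median log2 0.789, with 6.24% of all genes called).

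Of 14 photoperiod genes, known to act ahead of FT-like genes, 3 rose and 2 fell in the libraries labelled pSFT-SFT against WT, where 17.8% of all genes were called. Among them were CDF2 (log2 1.37, SE 0.172, edgeR adjusted p = 0.00543) and GI2 (log2 -0.92, SE 0.18, edgeR adjusted p = 0.0189). In 35S:GinFT, of another experiment, 1 was higher and 7 lower than in 35S:SFT, beside 16.7% of all genes higher and 15.3% lower. Against WT 0 were higher and 2 lower there (6.24% of all genes called). Of 10 other flowering and inflorescence regulators 4 were tested in the overexpression experiment, and 1 fell in the libraries labelled pSFT-SFT, TMF (log2 -1.13, SE 0.158, edgeR adjusted p = 0.00735), which is known to delay flowering in tomato.

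Likeness of pattern was measured by Pearson's r of group mean log2(CPM + 0.5) over the groups outside the heat-shock table, for genes whose log2 CPM averaged at least 0. SFT was the only member that reached this average, and over the 11 groups without 35S:SFT the closest genes were Solyc04g071490 (r = 0.982) and Solyc06g076300 (r = 0.977). Solyc04g071490 stood at 5.57 CPM in the overexpression WT and 1.62 CPM in the FUL WT, and Solyc06g076300 at 6.36 and 3.03 CPM. Over 12 groups the genes closest to Solyc03g026050 were Solyc09g089880 (r = 0.94) and Solyc09g007940 (r = 0.938). The points share libraries and experiments, so these values describe the groups only.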

How the data were processed

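The values are counts of reads per gene from tomato stem libraries, deposited by the authors in 1 table for the heat-shock experiment and another for all other experiments. Per the labels' protocols, RNA was DNase-treated and libraries were made with a TruSeq v2 kit, which does not mark strand, and read as single 50 bp reads, so antisense and overlapping genes cannot be told apart. The submitters' processing notes name HTSeq 0.6.1, Bowtie2 2.2.6, TopHat2 2.1.0, Trim Galore and FastQC 0.11.5. The sources used here give neither their settings nor a strand setting or genome build, and no coordinates are printed. Every column matched 1 sample, and 0 rows named no gene. Grafts were named donor//recipient as in the genotype labels, also where titles differ (sft//sft is titled with a wt partner), and libraries titled pTFT were named by their genotype label pSFT-SFT.

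Counts were tested as deposited in R 4.3.3 with edgeR 4.0.16 (glmQLFit and glmQLFTest, two-sided, TMM, filterByExpr by group with minimum count 10 and total 15), fitting all groups of an experiment, FUL with Ginkgo for 35S:GinFT, and the whole table for WT groups of different experiments. Benjamini-Hochberg adjustment was made over all genes tested, in 21 planned and 2 added comparisons. Folds against a group at 0 use 3 reads per library as the floor, and ratios that rest on few reads carry exact 95% counting intervals. PCR reads are not independent molecules, so these cover counting error only. Replicates of each group differed beyond counting error (chi-square per degree of freedom 7.26 to 47.6 over genes with 100 reads or more in the pair). Both libraries of a group carry 1 label number in the heat-shock, Ginkgo and FUL groups. DESeq2 1.42.0, other scalings, filters, fits, blocks and leaving out each library were tried as alternatives, and the procedure was tested on simulated counts. The text names all 8 members, called or not, and by rule the 2 genes of most like pattern where a member is abundant enough. Members, lists and tests were chosen with earlier results of these data known. Gene names of FUL1, FUL2, MBP20, FKF1, GI1, GI2, CDF2 and TMF rest on published knowledge of their identifiers.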

Additional observations from a re-analysis of the deposited data

How the results depend on the processing

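With 2 libraries a group and members of a few to about 100 reads, leaving out a library often decides a call. Over the 4 members tested, the direction and the side of the threshold were kept in 379 of 394 fits under other settings and in 250 of 312 fits without 1 library. Members called went from 2 to 1 in the libraries labelled pSFT-SFT, against WT and against sft, with all groups of the table in the fit and without any 1 library (1 to 1 in each), SP9D being the one kept. They went from 1 to 2 in 35S:SFT against WT and against 35S:TFUL2 with all groups of the table, and without 1 library the count lay at 1 to 2 in 35S:SFT against WT and in 35S:TFUL2 against WT. In 35S:GinFT against WT the count of 1 fell to 0 with DESeq2, with only the groups compared, with all groups of the table, with the replicate block and without 1 library (0 to 1), and against 35S:SFT 3 became 1 to 2 without 1 library. It was 2 to 4 instead of 4 in the FUL against the overexpression WT. In WT//WT against overexpression WT it was 0 instead of 1 without the filter and with only the groups compared, and 0 to 1 without 1 library. The donor averaged over recipients gave 1 instead of 0 with DESeq2, and heat averaged over genotypes 0 to 1 instead of 1 without 1 library. The member gained with all groups of the table in the 35S:SFT comparisons was SP9D, which passed the filter there only through other groups. The cause of these changes was not tested.

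Counts over all genes moved more than the members. DESeq2 called 1509 genes in 35S:SFT against WT where edgeR called 370, and 82 against 12 in sft against WT. It called 3119 against 1818 between 35S:SFT and 35S:TFUL2, 1033 against 491 between the heated genotypes, 94 against 0 between the unheated ones and 231 against 3 for the difference of heat responses. In the grafts it called 42 (on sft), 93 (on WT), 121 (sft//sft) and 19 (sp) where edgeR called 0, 3, 2 and 1, 21 against 0 for the donor response between recipients, and 182 against 6 for the donor over both. The labels number the replicates 1 and 2 in every group, but the numbers were not shown to pair libraries: correlations of same-numbered libraries ran from -0.51 to 0.43. In 35S:SFT//sp the replicate numbers run against the label numbers of the other grafts. Matched by earlier and later label numbers, 8 of 10 graft correlations lay above 0.1 (-0.039 to 0.51), and the labels do not say what these numbers mark. With that run as a block, 0 members were called in the grafts, as without it, while over all genes the calls went from 0 to 5 (donor on sft), 3 to 12 (on WT), 2 to 7 (sft//sft), 1 to 2 (sp) and 6 to 33 (donor over both). With the replicate block, 0 members were called in 35S:GinFT against WT instead of 1 and 2 against 35S:SFT instead of 3, and no other comparison changed its count. Over all genes the block took the calls from 1230 to 735 for heat in sft pHS:FT, from 491 to 315 between the heated genotypes, from 1213 to 753 for heat over both genotypes, from 20 to 11 for heat in sft and from 12 to 4 in sft against WT.

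None of the log2 differences that turned direction had been called. Without 1 library, SP2G ranged from -0.194 to 2.45 (pSFT-SFT against WT), -0.302 to 2.35 (sft against WT), -0.256 to 0.425 (pSFT-SFT against sft), -1.66 to 0.586 (35S:SFT donor on sft), -0.607 to 0.0852 (on WT), -1.31 to 0.782 (sp against WT recipients), -1.45 to 0.807 (donor response between recipients), -1.74 to 0.261 (WT//WT against FUL WT) and -0.938 to 0.182 (donor over both recipients). SFT ranged from -0.207 to 0.139 (sft against WT), -0.374 to 0.0964 (donor on WT), -0.15 to 0.0801 (sft//sft against WT//WT), -1.34 to 1.74 (sp against WT recipients) and -0.0353 to 0.964 (difference of heat responses). SP9D ranged from -0.164 to 0.769 (sft//sft against WT//WT) and -0.549 to 0.0714 (unheated genotypes), and SP from -3.01 to 2.17 (WT//WT against overexpression WT). Solyc03g026050 ranged from -0.362 to 1.12 (donor response between recipients), -0.553 to 1.32 (35S:GinFT against WT), -3.03 to 0.0356 (heat in sft), -2.08 to 0.299 (unheated genotypes) and -0.438 to 1.4 (WT//WT against FUL WT). With earlier against later label numbers as a block, SP2G in sp against WT recipients was -0.0426 instead of 0.123, and with all groups of the table Solyc03g026050 in 35S:GinFT against WT was -0.00455 instead of 0.0429. With library totals in place of TMM, mean SP2G in 35S:TFUL2 was 0.658 CPM and mean SP9D in 35S:SFT//sp 0.597 CPM, and a library left alone in its group is assumed to vary like the others.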
